A study of Mus musculus with 6 samples.

Results

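Siglecs are receptors of the cell surface that bind sialic acid, the sugar that caps most glycans of vertebrate cells. The receptors described here are 6 genes of this family, Siglech, Cd33, Siglece, Siglecg, Cd22 and Siglec1, taken by gene symbol from the 48587 genes of a table of raw read counts. They were read in microglia sorted by FACS, about 1000 cells per sample, from C57BL/6 mice at postnatal day 42. The groups are 3 samples labelled Lyl1 KO and 3 samples labelled wildtype, and both share strain, tissue and age. Lyl1 encodes a bHLH protein, a class of factors that bind E-boxes in DNA and that work in blood-forming cells, and the series asks what its loss does to microglia. The labels give neither the targeted allele nor whether the samples came from separate animals, so every p-value measures the spread between these 6 libraries, part of which may be technical.

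Most Siglecs carry an inhibitory motif in their cytoplasmic tail, the ITIM, which recruits the phosphatases encoded by Ptpn6 and Ptpn11 once sialic acid on the same or a neighbouring cell is bound. Siglec-H, the product of Siglech, lacks that motif and pairs with the activating adaptor encoded by Tyrobp, and it is used as a marker of microglia and of plasmacytoid dendritic cells. Siglec-E restrains activation and phagocytosis of mouse myeloid cells, CD33 is an inhibitory receptor of myeloid cells in humans, CD22 and Siglec-G restrain signalling of the B cell receptor, and sialoadhesin, the product of Siglec1, is an adhesion receptor of macrophages that interferon induces.

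Of the 6 members, 5 are on chromosome 7 in the GENCODE M21 annotation of GRCm38. Siglecg (43408204 to 43418358, plus strand), Cd33 (43524216 to 43544428, minus strand) and Siglece (43651070 to 43660161, minus strand) lie in a cluster with gaps of 106 and 107 kb, and Siglecf, a family gene outside the 6, lies 48.7 kb from Siglecg. Siglech (55768178 to 55778925, plus strand) is 12108 kb beyond Siglece, and Cd22 (30865402 to 30880342, minus strand) is 18.8 kb from Mag, another family gene. Siglec1 is on chromosome 2 (131069220 to 131086765, minus strand). All 6 are protein-coding genes.

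The promoter windows of Siglech, Cd33 and Siglece are shown because these members had the most reads. The gene named in the KO label encodes a protein of the E-box binding class. Each runs from 250 bases before to 50 bases after the start in RefSeq (GRCm38.p6), and RefSeq windows were found for 5 of the 6 members. Capitals mark E-boxes, the letters CANNTG, which read the same on both strands.
Siglech, chr7:55767934-55768233, plus strand: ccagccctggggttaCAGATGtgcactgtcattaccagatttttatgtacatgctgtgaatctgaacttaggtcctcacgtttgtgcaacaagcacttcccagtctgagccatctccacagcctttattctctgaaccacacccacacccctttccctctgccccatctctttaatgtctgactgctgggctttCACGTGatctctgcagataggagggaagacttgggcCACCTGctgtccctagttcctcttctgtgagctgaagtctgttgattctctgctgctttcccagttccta
Cd33, chr7:43533122-43533421, minus strand: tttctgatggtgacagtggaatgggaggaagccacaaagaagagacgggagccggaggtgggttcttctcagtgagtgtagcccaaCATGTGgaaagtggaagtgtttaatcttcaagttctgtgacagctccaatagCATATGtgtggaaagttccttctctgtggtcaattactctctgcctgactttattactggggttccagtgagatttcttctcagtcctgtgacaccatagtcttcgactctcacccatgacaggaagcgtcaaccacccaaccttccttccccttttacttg
Siglece, chr7:43660112-43660411, minus strand: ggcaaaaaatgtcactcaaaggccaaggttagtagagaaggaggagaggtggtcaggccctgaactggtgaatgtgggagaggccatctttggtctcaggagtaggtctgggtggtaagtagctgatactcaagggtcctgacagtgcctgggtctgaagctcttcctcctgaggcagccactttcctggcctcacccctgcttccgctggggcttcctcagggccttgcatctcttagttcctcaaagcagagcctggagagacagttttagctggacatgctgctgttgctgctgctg
The Siglech window held 3 E-boxes, at positions -235, -56 and -20 from the start, the Cd33 window held 2, at -164 and -112, and the Siglece window held 0. The Cd33 window lies inside the GENCODE span of that gene (43524216 to 43544428), away from its outermost annotated start at 43544428. Sequence before that outer start was not searched. The Siglech E-box at -235 has the letters CAGATG, a form searched on both strands that overlaps CANNTG by definition. Of 32851 RefSeq promoter windows of this length, 72.3% held an E-box and 17.2% held CAGATG. These matches describe letters and show no binding.

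Samples held 12753945 to 27378614 reads and differed in how many genes they detected. The KO samples detected 13085, 14923 and 15531 genes in the order of their numbers, against 13045, 12827 and 15652 in the wild-type samples. Of the 4474 tested genes at a mean of 10 to 50 CPM (read counts scaled by TMM to a common library total), 11.5%, 10.7% and 0.939% had 3 reads or fewer in KO samples 1 to 3, against 21.6%, 24.7% and 1.74% in wild-type samples 1 to 3. Lyl1 was at 9.03, 12.0 and 14.3 CPM in the KO samples and at 60.2, 55.6 and 40.0 CPM in wild type, lower in each KO sample but not absent. It was not called by edgeR (log2 fold change -2.14, adjusted p = 0.9999) and was called by DESeq2 (adjusted p = 0.0115). Microglia markers were high everywhere, with P2ry12 at 7825 ± 944 CPM in KO and 6729 ± 330 CPM in wild type, and Tmem119 at 4842 ± 422 CPM in KO and 5084 ± 271 CPM in wild type (SD, n = 3 each). Every KO sample had more P2ry12 than every wild-type sample, as for 5.97% of all tested genes. The log2 fold change of P2ry12 was 0.22, with standard error 0.12 (edgeR, adjusted p = 0.9999).

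By reads, Siglech led, Cd33 and Siglece followed, Siglecg was low, and Cd22 and Siglec1 had no reads in some samples. No member passed the test of genotype: edgeR's quasi-likelihood test called 0 of the 5 members tested and 0% of the 10394 genes tested at an adjusted p under 0.05. At an unadjusted p under 0.05 it gave 1 of the 5 members as lower in KO and 0 as higher, where 1.67% of all tested genes were lower and 1.16% higher. Siglec1 did not pass the filter on low counts. Without any filter edgeR called 0.0364% of the genes with a read, and DESeq2 called 0.687% of the genes it gave a p, with 0 members among them in either. The member at that unadjusted p was Siglece, which was also the member whose genotypes did not overlap. In bulk samples, fewer cells that express a gene and less RNA of it per cell cannot be told apart.

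**Figure D1:**
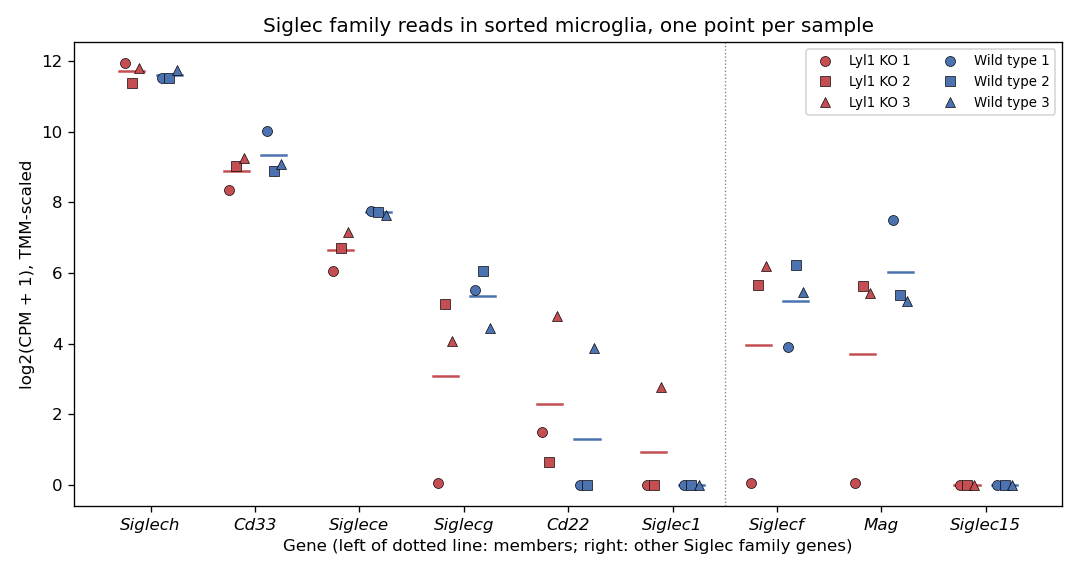
Levels of the 6 members and 3 other Siglec family genes as log2(CPM + 1) on the vertical axis, with Lyl1 KO (red) left of wild type (blue), 1 symbol per sample and a bar at the mean of the log2 values. Siglece is lower in all KO samples than in all wild-type samples, and the KO points at the bottom for Siglecg, Siglecf and Mag are all sample 1.

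Siglech had 3890, 2677 and 3531 CPM in KO samples 1 to 3, against 2913, 2910 and 3436 CPM in wild-type samples 1 to 3. The genotypes overlapped, with both the highest and the lowest value in KO. The means were 3366 ± 623 CPM in KO and 3086 ± 303 CPM in wild type (SD, n = 3 each). The log2 fold change, KO over wild type, was 0.13, with standard error 0.17 and a 95% interval of -0.27 to 0.52 (edgeR, adjusted p = 0.9999). Its coefficient of variation was 18.5% in KO and 9.81% in wild type, where the median of the 97 tested genes at 1000 CPM or more was 10.7% in KO and 17.5% in wild type. Siglech thus varied more than the median gene of its level in KO and less in wild type.

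Siglece had 65.6, 103 and 141 CPM in KO samples 1 to 3, from 1491, 2032 and 4043 reads, against 215, 212 and 199 CPM in wild-type samples 1 to 3, from 2444, 5330 and 4177 reads. Every KO sample lay below every wild-type sample, and the KO samples were spread more widely than the wild-type samples. The means were 103 ± 37.5 CPM in KO and 209 ± 8.50 CPM in wild type (SD, n = 3 each), 2.02-fold lower in KO. On the log2 scale this was -1.02, with standard error 0.39 and a 95% interval of -1.93 to -0.10 (edgeR, unadjusted p 0.0340, adjusted p = 0.9999). An exact permutation test on CPM, 2-sided, gave p = 0.1, which is the lowest value possible for 3 samples against 3. Groups that do not overlap with KO below wild type were found for 5.19% of all tested genes. Without KO sample 1, the lowest, the log2 fold change was -0.78 (unadjusted p 0.114).

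Cd33 had 321, 525 and 605 CPM in KO samples 1 to 3, against 1042, 468 and 539 CPM in wild-type samples 1 to 3. The genotypes overlapped, since wild-type samples 2 and 3 lay among the KO samples and wild-type sample 1 stood above all others. The means were 484 ± 146 CPM in KO and 683 ± 313 CPM in wild type (SD, n = 3 each). The log2 fold change was -0.50, with standard error 0.37 and a 95% interval of -1.37 to 0.37 (edgeR, adjusted p = 0.9999). Without wild-type sample 1 it was -0.05.

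Siglecg, the receptor that in B cells dampens antigen receptor signals, had 0.0440, 33.5 and 15.9 CPM in KO samples 1 to 3, against 45.0, 65.7 and 20.7 CPM in wild-type samples 1 to 3. The value in KO sample 1 rests on 1 read of 22259533, while the other samples had 433 to 1654 reads. The genotypes overlapped, and the log2 fold change was -1.41, with standard error 1.71 (edgeR, adjusted p = 0.9999). Without KO sample 1 it was -0.83. In its longest transcript, 5.99% of the runs of 50 bases, the read length, also occur in transcripts of other genes, most of them in Gm29791 and some in Siglecf. How the authors' counting treated such reads is not given in the sources used here, so the level of Siglecg is uncertain.

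Cd22 had 1.81, 0.559 and 26.3 CPM in KO samples 1 to 3, from 41, 11 and 756 reads, and 13.6 CPM in wild-type sample 3, from 285 reads. Wild-type samples 1 and 2 had 0 reads, which allows up to 0.264 and 0.119 CPM. KO sample 3 and wild-type sample 3, which detected the most genes, thus held most of the Cd22 reads in either genotype. The log2 fold change of 1.07 had standard error 2.79 (edgeR, adjusted p = 0.9999), and it turned to -1.94 without KO sample 3. Gm29439, on the opposite strand, shares 479 exonic bases with Cd22. Of the runs of 50 bases in the longest Cd22 transcript, 10.3% occur in other genes, most of them in Gm29439. Reads of that stretch could belong to either gene, because the library kit keeps no strand.

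Siglec1 had 168 reads, 5.84 CPM, in KO sample 3 and 0 reads in the other 5 samples. A count of 0 allows up to 3 reads, which is 0.132 and 0.152 CPM in KO samples 1 and 2 and 0.264, 0.119 and 0.143 CPM in wild-type samples 1 to 3. Siglec1 was therefore detected in 1 of 6 samples, and no fold change is given. No run of 50 bases of its longest transcript occurs in another gene.

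**Figure D2:**
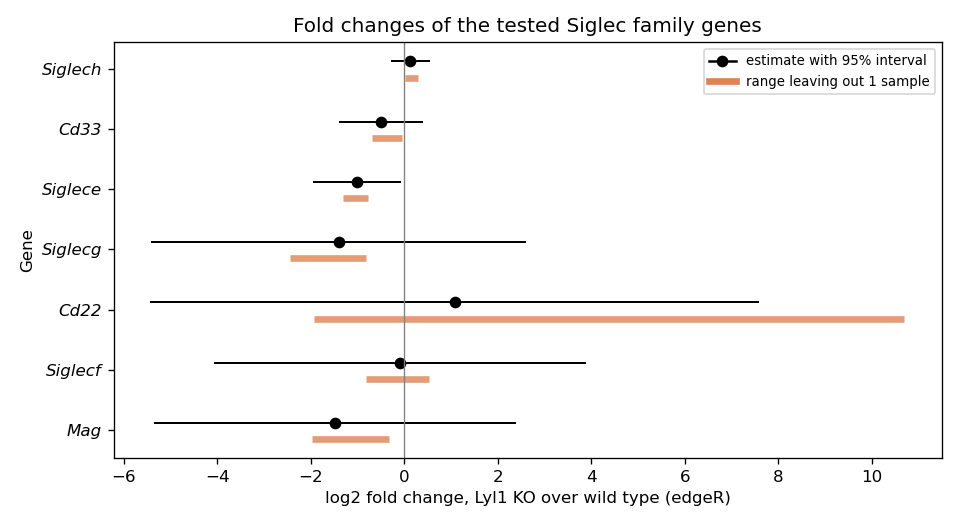
Log2 fold change of each tested member and of Siglecf and Mag, Lyl1 KO over wild type, as a black point with its 95% interval. The orange bar is the range over the fits that leave out 1 sample. The interval of Siglece ends at -0.10, the intervals of all the others include 0, and the bar of Cd22 runs from -1.94 to 10.7.

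Reads per kilobase allow the members to be compared with each other. Per kilobase of annotated exon sequence, Siglech was at 995 ± 184 CPM per kb in KO and 912 ± 89.5 in wild type. Cd33 was at 62.2 ± 18.8 CPM per kb in KO and 87.9 ± 40.3 in wild type, and Siglece was at 55.8 ± 20.3 in KO and 113 ± 4.60 in wild type (SD, n = 3 each). Siglecg followed at 3.43 ± 3.49 CPM per kb in KO and 9.11 ± 4.69 in wild type, and Cd22 at 1.89 ± 2.88 in KO and 0.899 ± 1.56 in wild type. Siglec1 was last, at 0.818 CPM per kb in KO sample 3 and at 0 elsewhere. Siglech stood above every other member in each sample. Cd22 and Siglec1 did not differ from each other beyond their spread between samples, nor did Siglecg and Cd22 in KO. The same held for Cd33 and Siglece in either genotype. Within each KO sample Cd33 was above Siglece, at 41.4, 67.5 and 77.8 against 35.5, 55.9 and 76.0 CPM per kb. Of the wild-type samples, only sample 1 had Cd33 above Siglece. In wild type Siglece had the higher mean of that neighbouring pair with exon length (113 against 87.9 for Cd33), and Cd33 had it with the length of the longest transcript (119 against 113 for Siglece).

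The sum over the 6 members was about the same in both genotypes, at 3981 ± 556 CPM in KO and 4026 ± 321 CPM in wild type (SD, n = 3 each). Siglech made up 90.9%, 80.2% and 81.7% of this sum in KO samples 1 to 3, against 69.1%, 79.6% and 81.6% in wild-type samples 1 to 3. The ratio of 2 genes within a sample does not depend on the scaling of the library. There were 1.69, 3.86 and 3.98 Siglece reads per 100 Siglech reads in KO samples 1 to 3, against 7.40, 7.28 and 5.80 in wild-type samples 1 to 3. These ratios did not overlap between genotypes (exact 2-sided permutation p = 0.1, adjusted over the 3 ratios p = 0.3). That p is the lowest possible for 3 samples against 3. The ratios reuse the Siglece reads described above, which did not overlap either, so they are not separate support. Cd33 reads per 100 Siglech reads overlapped, at 8.26, 19.6 and 17.1 in KO and 35.8, 16.1 and 15.7 in wild type (exact permutation p = 0.6, adjusted p = 0.6). Siglece reads per 100 Cd33 reads were 20.4, 19.7 and 23.3 in KO and 20.7, 45.3 and 37.0 in wild type, so wild-type sample 1 lay within the KO range (exact permutation p = 0.2, adjusted p = 0.3). The 3 ratios were chosen after the values were seen, and the adjustment is that of Benjamini and Hochberg.

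**Figure D3:**
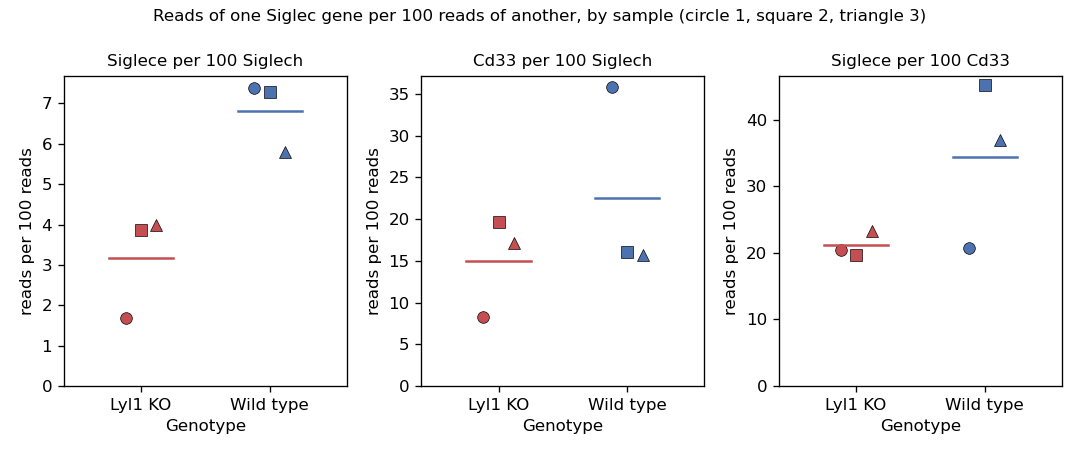
Reads of a Siglec gene per 100 reads of another in the same sample, with Lyl1 KO (red) left of wild type (blue) and a bar at the mean. Vertical axes start at 0. Siglece per 100 Siglech is below 4 in all KO samples and above 5 in all wild-type samples, while the other 2 ratios overlap between genotypes.

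Genes whose levels followed a member most closely over the 6 samples were found by the root mean square difference of log2(CPM + 1) values, each centred on its own mean, among 6336 candidates at 20 CPM or more. For Siglech these were Ywhae, Rap1b and Cox6c, at 0.07, 0.09 and 0.10. For Siglece they were Dad1, Jam2 and Cd52, at 0.14, 0.19 and 0.20. Cd52, a small sialylated glycoprotein of leukocytes that is a Siglec-10 ligand in humans, was at 47.4, 88.6 and 95.5 CPM in KO samples 1 to 3, against at 117, 133 and 124 CPM in wild-type samples 1 to 3. Its lowest value in KO sample 1 and its lack of overlap, both shared by Dad1 and Jam2, follow from choosing genes by likeness to Siglece. Among all tested genes, 5.19% had groups that did not overlap with KO below wild type. The log2 fold change of Cd52 was -0.69, with standard error 0.48 (edgeR, adjusted p = 0.9999). For Cd33 the closest genes were Park7, Tm9sf2 and Alkbh7, at 0.09, 0.13 and 0.15, and for Siglecg Terf2, Gcsh and Atg9a, at 0.22, 0.28 and 0.29. Among these 4 members, Cd33 and Siglece were the closest pair at 0.47, and Siglech and Siglecg the farthest at 2.13. The values for Siglecg rest largely on its 1 read in KO sample 1. In that sample Terf2, Gcsh and Atg9a were also near 0, at 0.704, 0.220 and 0.0881 CPM. Cd22 and Siglec1 were not compared in this way.

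Of the other Siglec family genes, Siglecf, known from eosinophils and alveolar macrophages, had 1, 972 and 2080 reads in KO samples 1 to 3, against 160, 1857 and 895 in wild-type samples 1 to 3. Mag, which encodes a Siglec of myelin, had 1, 946 and 1222 reads in KO and 2020, 1028 and 748 in wild type. Siglec15, known from osteoclasts, had 0 reads in all 6 samples. Siglecf and Mag were not called (log2 fold changes of -0.10 and -1.49, with standard errors of 1.70 and 1.66; edgeR, adjusted p = 0.9999 for both). The sign for Siglecf turned with upper-quartile scaling (0.058) and library-size scaling (0.011). Siglecg, Siglecf and Mag were thus all at 1 read in KO sample 1. Siglecg and Siglecf average between 10 and 50 CPM, a level at which 11.5% of tested genes had 3 reads or fewer in that sample, and Mag averages above it.

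Markers of cells known for these receptors were set beside them. Of 8 B cell markers, Ms4a1, Pax5 and Fcer2a had at most 1 read in any sample, while Ighm (842 to 1390 CPM) and Cd79b were read in all. Cd79a and Cr2 had 29 and 21 reads in wild-type sample 3, where Cd22 was read, and 0 and 1 in KO sample 3, where Cd22 was highest. The summed B cell list was at 1066 to 1351 CPM in KO and 960 to 1495 CPM in wild type. Of 8 plasmacytoid dendritic cell markers, Ly6d, Klk1 and Spib were at 0 in all samples. Ccr9 had 1 read, in KO sample 2, and 0 in the other samples. The sum over this list, at 196 to 286 CPM in KO and 124 to 230 CPM in wild type, was mostly Tcf4. Of 7 eosinophil markers 6 had at most 1 read in any sample, and Ccr3, the other one, was read at 12.1 CPM in KO sample 3 and 14.7 CPM in wild-type sample 3. Of 8 border macrophage markers 5 stayed at 3 reads or fewer, and the sum was at 0.457 to 10.3 CPM in KO and 0.437 to 95.8 CPM in wild type, most of it Mrc1 except in KO sample 2. In KO sample 3, where Siglec1 was read, Mrc1 was at 10.2 CPM. It was higher, at 95.4 CPM, in wild-type sample 1, which had no Siglec1 read. Neutrophil markers summed to 0.132 to 0.610 CPM in KO and 0.176 to 3.30 CPM in wild type, with S100a8, Ly6g and Ngp at 0. Beside Mag, the myelin genes Mobp, Cldn11 and Ermn were at 0, while Mbp and Cnp were read in most samples, and this list summed to 109 to 167 CPM in KO and 6.55 to 201 CPM in wild type. The part of such cells in the levels of Siglecf, Mag, Cd22 and Siglec1 was not tested.

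The genes that make, attach and remove the sialic acid ligands were not called either. Of 6 tested genes of sialic acid supply and recycling 3 were higher and 3 lower in KO, of 10 sialyltransferases 4 were higher and 6 lower, and of 3 genes of sialidases and O-acetylation 1 was higher and 2 lower. Medians of the log2 fold changes were -0.16, -0.14 and -0.03, against -0.03 over all tested genes, of which 48.7% were above 0 and 51.3% below. Cmas, the enzyme that activates sialic acid for transfer, was the 1 gene of these at an unadjusted p under 0.05. It had 289, 170 and 237 CPM in KO samples 1 to 3, against 47.7, 131 and 54.0 CPM in wild-type samples 1 to 3, so that every KO sample lay above every wild-type sample, as for 5.97% of all tested genes. Its log2 fold change was 1.58, with standard error 0.51 (edgeR, adjusted p = 0.9999). Slc35a1, which carries activated sialic acid into the Golgi, averaged 47.9 ± 54.8 CPM in KO and 166 ± 96.4 CPM in wild type, with overlap. Npl, which breaks sialic acid down, averaged 107 ± 80.8 CPM in KO and 192 ± 70.6 CPM in wild type. The sialyltransferase St3gal6 was at 564 ± 89.8 CPM in KO and 780 ± 212 CPM in wild type, and St6galnac4 was at 319 ± 60.7 in KO and 248 ± 43.3 in wild type. St8sia4, a polysialyltransferase, was at 18.6 ± 11.0 CPM in KO and 88.7 ± 153 in wild type, and its negative fold change turned positive without wild-type sample 1. Neu1, the lysosomal sialidase, was at 95.9 ± 27.2 CPM in KO and 98.0 ± 53.3 CPM in wild type, a difference whose sign turned with upper-quartile and library-size scaling. Casd1, which adds O-acetyl groups, was at 72.6 ± 57.9 in KO and 54.0 ± 67.0 in wild type, and Siae, which removes them, was at 6.96 ± 8.56 in KO and 18.8 ± 21.6 in wild type (SD, n = 3 each).

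Downstream of the receptors, all 14 genes of adaptors, kinases and phosphatases were tested, with 4 higher, 10 lower, 0 called and a median log2 fold change of -0.31. Over all tested genes the median was -0.03, and 51.3% were below 0. Tyrobp, the adaptor of Siglec-H, had 1471, 1343 and 1911 CPM in KO samples 1 to 3, against 3344, 2558 and 1980 CPM in wild-type samples 1 to 3. The genotypes did not overlap, with KO below wild type, as for 5.19% of all tested genes. KO sample 3 and wild-type sample 3 lay close together. The log2 fold change of Tyrobp was -0.74, with standard error 0.23 (edgeR, adjusted p = 0.9999). Siglech itself had its 95% interval around 0. The difference between these 2 fold changes was not tested. Ptpn6, a phosphatase that ITIMs recruit, overlapped at 675, 625 and 669 CPM in KO and 641, 861 and 709 CPM in wild type. Ptpn11, which they also recruit, overlapped at 33.8, 20.3 and 19.8 CPM in KO and 179, 2.26 and 30.1 CPM in wild type. Its log2 fold change was -1.52, with standard error 1.35 (edgeR, adjusted p = 0.9999). Fyn averaged 9.57 ± 9.28 CPM in KO and 0.887 ± 1.01 CPM in wild type, and Vav1 averaged 485 ± 93.6 in KO and 645 ± 154 in wild type (SD, n = 3 each).

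Among 10 tested receptors of other families with ITIMs, 6 were higher and 4 lower in KO, and 0 were called. Their median log2 fold change was 0.28, against -0.03 over all tested genes. Fcgr2b, the inhibitory Fc receptor, had 198, 280 and 235 CPM in KO, against 518, 556 and 563 CPM in wild type. It had no overlap, with KO below wild type, as for 5.19% of all tested genes. Its log2 fold change of -1.20 had standard error 0.24 (edgeR, adjusted p = 0.9999). Cd300a, an inhibitory receptor for phospholipids, was at 273 ± 115 CPM in KO and 437 ± 71.6 CPM in wild type, and Lair1, a collagen receptor, was at 1304 ± 265 in KO and 1034 ± 104 in wild type. Of these 10 receptors, Fcgr2b was thus the only 1 whose groups did not overlap, and Lair1 had the higher mean in KO.

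Carriers of sialylated ligands showed 1 tested gene higher and 2 lower. Selplg was at 7550 ± 198 CPM in KO and 7888 ± 894 CPM in wild type, and Ptprc, the CD45 phosphatase that CD22 binds in B cells, was at 222 ± 49.2 in KO and 221 ± 154 in wild type (SD, n = 3 each). The sign for Selplg turned with upper-quartile and library-size scaling, and that for Ptprc with RLE scaling.

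Siglec1 is an interferon-induced gene, and type I interferon genes were therefore set beside it. Of the 21 genes in this list 12 were tested. Of these, 8 were higher and 4 lower in KO, with a median log2 fold change of 0.96. Over all tested genes the median was -0.03, and 48.7% were above 0. Of the 12, 0 were called and 0 had an unadjusted p under 0.05 (edgeR). Their standard errors ran from 0.48 to 2.61. Irf9 had 196, 101 and 110 CPM in KO samples 1 to 3, against 70.7, 74.9 and 62.9 CPM in wild-type samples 1 to 3. It had no overlap, with KO above wild type, as for 5.97% of all tested genes. Bst2 was at 25.3, 21.2 and 72.7 CPM in KO and 142, 53.5 and 128 CPM in wild type, and had the lower mean in KO. The part of interferon in the Siglec1 reads of 1 sample was not tested.

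**Figure D4:**
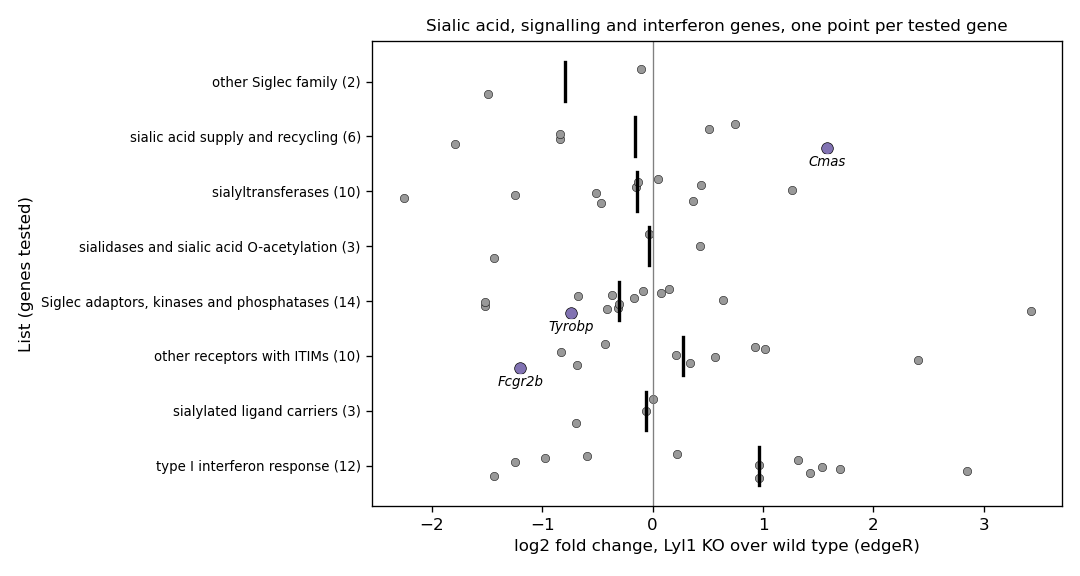
Log2 fold change, Lyl1 KO over wild type, of each tested gene in the lists around the Siglecs, with a black bar at each list's median. Purple points with names are at an unadjusted p under 0.05, and the points of every list but the other Siglec family genes lie on both sides of 0. Numbers in brackets are genes tested.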

How the data were processed

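PolyA RNA of sorted microglia was turned into cDNA with a SMARTer Ultra Low Input kit and into Nextera XT libraries, which were sequenced as single reads, per the labels' protocols. The table deposited by the authors holds a raw count of reads for each gene symbol and sample. CASAVA 1.8.2, STAR 2.5.2b, Subread, featureCounts 1.5.1, limma 3.28.21 and GRCm38 appear in the submitters' processing notes, without a role or an order. How strand and reads with several matches were handled, and with which annotation, is not given in the sources used here. PCR copies count as separate reads, so floors cover counting error only.

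ERCC entries, 92 in number, entered neither library sizes nor tests. In R 4.3.3, edgeR 4.0.16 filterByExpr with its defaults (minimum count 10, minimum total 15) kept 10394 genes, TMM scaled the libraries, and the quasi-likelihood F test (older dispersion estimate) compared KO with wild type on genotype alone, 2-sided, with Benjamini-Hochberg adjustment over all tested genes and a threshold of 0.05. The standard error is the size of the log2 fold change divided by the square root of F, and 95% intervals use the test's degrees of freedom. Exact permutation tests used CPM. The fit was tested on simulated data, where it recovered most changed genes at a low simulated spread and few at the spread of these samples. Levels per kilobase divide CPM by the union of annotated exons. DESeq2 1.42.0 and limma-voom (limma 3.58.1) were alternatives.

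The members and the 21 gene lists were chosen with earlier results of these data known. The text names the members, the other Siglec family genes, Lyl1, P2ry12, Tmem119, the 3 tested genes of each pathway list with the smallest p, the 3 genes most like each member at 20 CPM or more, and the most abundant gene of a marker list. A few genes that this rule or a marker list would name are not reported here. Ptpn6, Ptpn11 and the other marker genes were named after their values were seen. Marker lists of monocytes, neurons, astrocytes, endothelial cells, red blood cells and T and NK cells are given in the closing section.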

Additional observations from a re-analysis of the deposited data

Results flagged for a closer look

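Reads of ERCC spike-in sequences, which enter no comparison here, were above the 3 reads that a count of 0 allows in every sample. KO samples 1 to 3 had 25, 21 and 25 such reads, and wild-type samples 1 to 3 had 66, 50 and 21. The labels do not say that spike-ins were added.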

How the results depend on the processing

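Of the 15 alternatives tried, edgeR with no filter on low counts called 8 genes and DESeq2 called 137, against 0 in the fit reported, and the other 13 called 0. No member was called in any of them, and DESeq2 gave Cd22 and Siglec1 no adjusted p. Siglece was lower in KO in all 15, with log2 fold changes from -1.31 to -0.78, an unadjusted p under 0.05 in 5 and adjusted p from 0.458 to 1. Siglecg and Cd33 were lower in all 15 (-3.61 to -0.83 and -0.69 to -0.05) and Siglech higher in all 15 (0.01 to 0.28). Cd22 was higher in 14, and leaving out each sample in turn gave -1.94 to 10.7, the last without wild-type sample 3, where the other wild-type samples have 0 reads and the value depends on the prior count. Without any filter Siglec1 had an unadjusted p of 0.0476 (edgeR, adjusted p = 0.651), resting on 1 library.

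Other signs that turned belonged to genes with small or unstable fold changes, and the cause was not tested. Upper-quartile scaling gave Siglecf 0.058, Tmem119 0.068, Neu1 0.14 and Selplg 0.085, and library-size scaling gave 0.011, 0.041, 0.099 and 0.053 for the same genes. Neu1 was also at 0.044 with no filter, 0.27 with limma-voom and 0.093 with edgeR's newer dispersions, an alternative chosen after seeing the data. Ptprc was at -0.043 with RLE scaling, -0.0065 with a filter of 5 CPM, -0.0076 with DESeq2, -0.0011 with limma-voom and -0.070 with the newer dispersions. St8sia4 was at 2.04 with limma-voom. Leaving out each sample in turn gave -0.82 to 0.53 for Siglecf, -2.82 to 4.97 for St8sia4, -3.10 to 0.0053 for Siae, -0.36 to 2.16 for Casd1, -0.30 to 0.50 for Neu1, -0.13 to 0.038 for Selplg and -0.30 to 0.76 for Ptprc.

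Same-numbered samples did not deviate together over genes at a mean of 20 CPM or more (correlations across 6523 genes of 0.0014, -0.01 and -0.04). The numbers were therefore not taken to pair them. Genes of lower mean were not in that check, and KO sample 3 and wild-type sample 3 both detected the most genes (15531 and 15652). Whether the same number marks samples handled together was not tested. With the replicate number as a block, edgeR called 0 genes and 0 members, Siglece was at -1.08 (adjusted p = 1), and St8sia4 (2.77) and Neu1 (0.082) turned positive. With the longest transcript's length, the level per kilobase was 1463 in KO and 1341 in wild type for Siglech and 84.4 in KO for Cd33. Low reads limit Cd22 and Siglec1, and 1 read in KO sample 1 limits Siglecg.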

Other observations

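Marker lists of cells not set beside the members were read as follows. Monocyte markers summed to 0.356 to 6.96 CPM in KO and 0.238 to 1.67 CPM in wild type. Neuron markers summed to 0.661 to 7.62 CPM in KO and 0.199 to 2.24 CPM in wild type, and astrocyte markers to 170 to 258 CPM in KO and 176 to 410 CPM in wild type, almost all of it Slc1a3. Endothelial markers summed to 27.2 to 61.7 CPM in KO and 26.1 to 154 CPM in wild type, mostly Pecam1, which also stands in the list of receptors with ITIMs. Red blood cell markers were at 227, 65.2 and 0.243 CPM in KO samples 1 to 3 and at 0.159 to 1.23 CPM in wild type. Of 8 T and NK cell markers 6 were at 0 in all samples, and the sum reached 0.0696 CPM. Siglece was lowest in KO sample 1, the sample with the highest sum of red blood cell markers, and the part of those cells in its level was not tested.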
